A study of Homo sapiens with 8 samples.

Results

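DEAD and DEAH box proteins are RNA helicases, named after a short run of amino acids in the motif that binds and hydrolyses ATP. DEAD box (DDX) proteins open short stretches of double-stranded RNA locally, whereas DEAH box (DHX) proteins move along a strand, and between them they serve splicing, ribosome assembly, mRNA export, translation, decay and the sensing of viral RNA. The messages that encode them are cleaved and polyadenylated like other mRNAs, usually a short distance after an AAUAAA or AUUAAA hexamer, and a gene with several poly(A) sites can give mRNAs with different 3′ ends.

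The genes were chosen by symbol alone, as those written DDX or DHX followed by a number and at most 1 letter. This found 41 genes among the 7504 of both deposited tables, of which 30 are DDX and 11 are DHX genes. The MDA-LM2 table held 36 of them among 6541 genes, the sgHNRNPC table held 38 among 6801, and 33 were in both. The annotation used here names 54 protein-coding genes in this way, of which 40 have rows in at least 1 table. The remaining gene of the 41 is DDX58, which that annotation calls RIGI.

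The study asked whether breast cancer cells of different metastatic capacity, and cells with less of the RNA-binding protein HNRNPC, choose different poly(A) sites. Its 8 libraries of mRNA 3′ ends came from MDA-MB-231, a poorly metastatic human breast cancer cell line, from MDA-LM2, a derivative of it that is highly metastatic to the lungs, and from MDA-MB-231 cells carrying a non-targeting control (sgControl) or a CRISPR interference knockdown of HNRNPC (sgHNRNPC), with 2 replicates each. The study's methods describe its RNA sequencing as done in biological duplicates, and the labels do not name separate cultures. One table sets MDA-LM2 against MDA-MB-231 cells and the other sets sgHNRNPC against sgControl cells, and each row of a table names a proximal and a distal site of 1 gene. Neither holds the value of a single sample, so library depth and replicate spread are unknown. The remaining columns are the authors' own comparison of the groups and were not used, so nothing here says whether use of a site rose or fell. What follows is which poly(A) sites of the helicase genes entered each comparison, in which order, how far apart, and what the reference genome holds at them.

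Sites are named in either of 2 ways, as a genomic position or as the transcript whose end they mark. Of the 89 distinct transcript ends of helicase genes, 81 (91.0%) were found under the same identifier and version in GENCODE release 44 and could be placed on GRCh38, against 89.1% over all genes. The genomic positions could not be placed, because only 4 of the 46 fall inside or up to 5000 nt from the gene's GRCh38 location, and the build is not named in the tables. Distances between genomic positions are therefore given within the tables' own coordinates, and GRCh38 coordinates are given for transcript ends only.

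A few of these ends show what kinds of sites were compared. Each line below gives the name of the transcript in the annotation, the location of its last 30 bases in GRCh38, and those bases from 5′ to 3′ as DNA, with a poly(A) signal in capitals where it lies within them. The first lines are from DDX46, a splicing helicase with the most sites listed, and from DHX9, and they set ends inside coding exons against the end of the transcript that the annotation takes as canonical for the gene.
DDX46-211, in coding exon 8, chr5:134781923-134781952, plus strand: ttcttcagaggaggaagaagttgatcttca
DDX46-208, in coding exon 14, chr5:134794939-134794968, plus strand: caggatcctcagtaaacctattgaagtaca
DDX46-202, the canonical end, chr5:134831092-134831121, plus strand: ccttataaAATAAAattaattcgaattcaa
DHX9-206, in coding exon 6, chr1:182854113-182854142, plus strand: atattttcagaaagaaaagatccaaggaga
DHX9-201, the canonical end, chr1:182887953-182887982, plus strand: cctgAATAAAacttttgacctagggttgaa

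The next lines show pairs that lie in the same last exon, where both ends of DHX34 and of DDX24 carry a signal and only the distal end of DDX51 does, and an end of DDX59 that is followed by A-rich genomic sequence.
DHX34-202, in the 3′ UTR, chr19:47382250-47382279, plus strand: ggattgtgAATAAAgcctcacatgctgata
DHX34-201, the canonical end, chr19:47382675-47382704, plus strand: taaaaaAATAAAagaacaggctgagccggg
DDX24-206, in the 3′ UTR, chr14:94050920-94050949, minus strand: atttcataaATTAAAaacaatggtcagagc
DDX24-208, the canonical end, chr14:94048287-94048316, minus strand: atcatAATAAAcatgcagttgtaaaaacaa
DDX51-203, in the 3′ UTR, chr12:132137435-132137464, minus strand: tttaggtagacggggtaaagccagtcccca
DDX51-202, the canonical end, chr12:132136594-132136623, minus strand: cctttttgcttATTAAActtctgctccaaa
DDX59-206, after the canonical end, chr1:200623896-200623925, minus strand: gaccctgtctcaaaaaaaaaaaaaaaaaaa

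The helicase genes had a mean of 3.19 ± 1.26 sites (SD over 36 genes) in the MDA-LM2 table and 3.08 ± 1.26 (SD over 38 genes) within the sgHNRNPC table, with a median of 3 in both. Over all genes the means were 3.06 ± 1.39 and 3.17 ± 1.51, again with a median of 3. By kind, transcript ends made up 80 of the 115 helicase sites (69.6%) in the MDA-LM2 table and 74 of 117 (63.2%) within the sgHNRNPC table, against 54.6% and 51.3% over all genes. Genes listed with transcript ends alone numbered 18 of 36 and 15 of 38, against 25.4% and 22.5% of all genes. Pairs of 2 transcript ends made up 67 of the 154 helicase pairs (43.5%) in the MDA-LM2 table, where they are 24.4% of all pairs, and 49 of 151 (32.5%) within the sgHNRNPC table, where they are 19.9%. These shares are descriptions of lists, and no test was run on them.

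**Figure D1:**
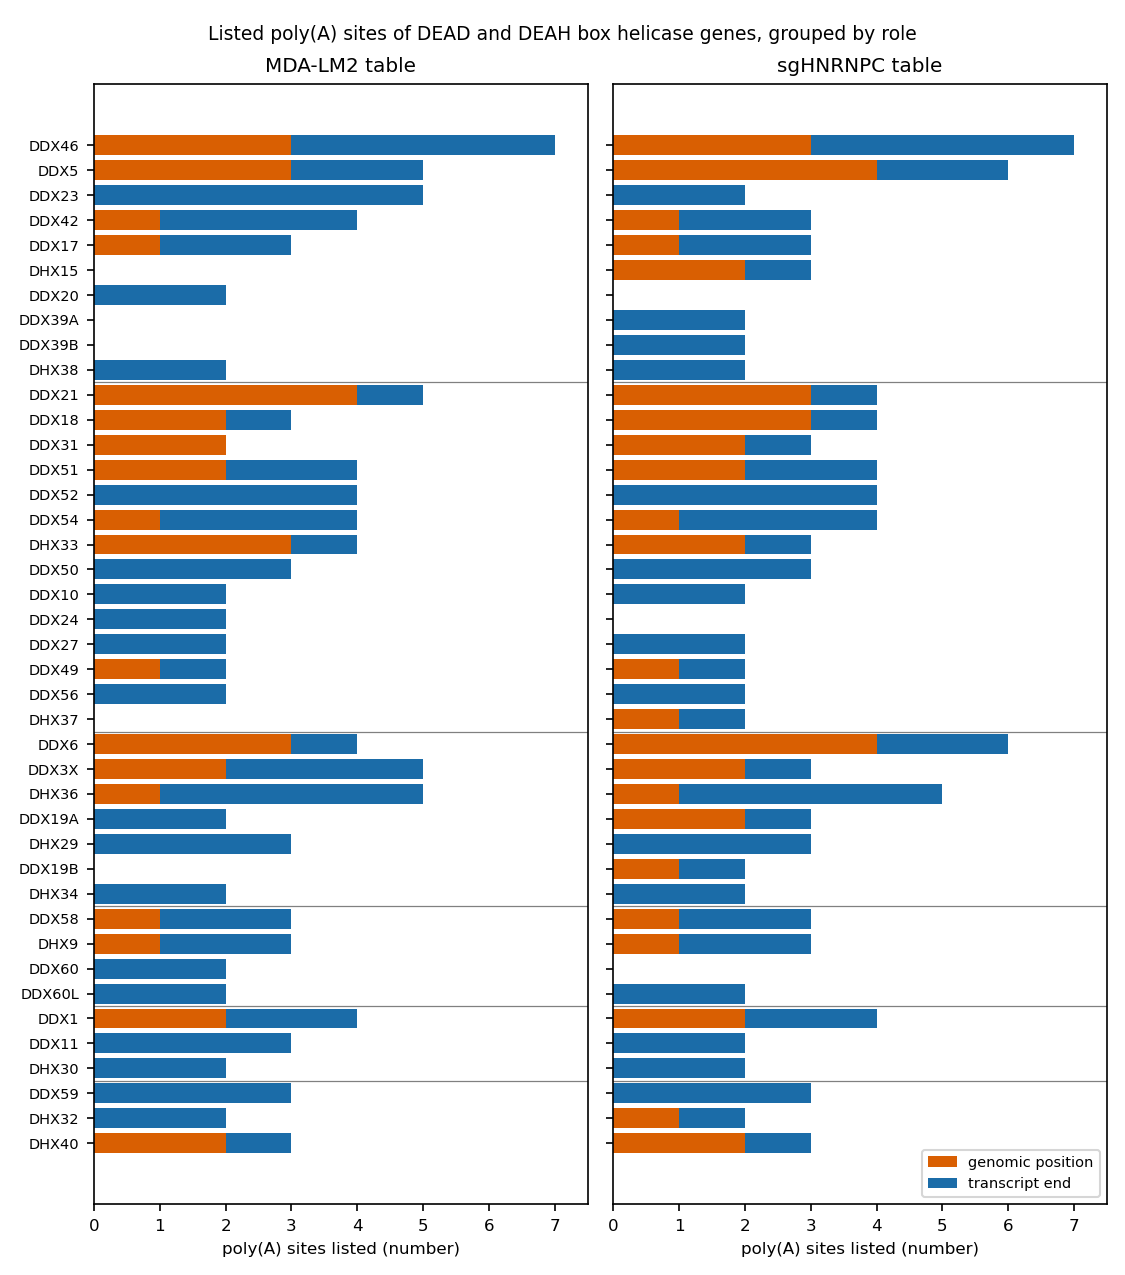
Number of poly(A) sites listed for each of the 41 helicase genes (horizontal axis) in the MDA-LM2 table (left) and the sgHNRNPC table (right), split into genomic positions (orange) and transcript ends (blue); grey lines separate splicing, ribosome biogenesis, export with translation and decay, RNA sensing, mitochondria with genome maintenance, and other genes. DDX46 has 7 sites in both tables, and genes with no bar in a panel have no pair in that table.

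Among the helicases of splicing, 10 genes held 36 distinct sites, 25 of them transcript ends. DDX46, which acts when the U2 snRNP joins the branch site, had 7 sites in both tables, and they ran from proximal to distal as a genomic position, 2 transcript ends, 2 genomic positions and 2 transcript ends. DDX5, a helicase of splicing and transcription, had 5 sites in the MDA-LM2 table and 6 within the sgHNRNPC table. The additional site of DDX5, at position 62496220 of chromosome 17 in the tables' coordinates, lies 537 nt from the most distal genomic position, and the distal end of the list was in both tables the canonical end at 64498254 in GRCh38. DDX23, a component of the U5 snRNP, was listed by transcript ends alone, with 5 in the MDA-LM2 table and 2 within the sgHNRNPC table. The 2 that stayed were an incomplete transcript that stops in coding exon 4, 10257 nt before the canonical end, and the canonical end itself.

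The 14 genes of ribosome biogenesis held 44 distinct sites, 18 of them genomic positions. DDX21, which works on ribosomal RNA in the nucleolus, had the most, with 4 genomic positions and the canonical end in the MDA-LM2 table and 3 genomic positions and the same end within the sgHNRNPC table. DDX10 had 2 transcript ends and no genomic position in both tables. Neither of the DDX10 ends reaches the canonical end, since one lies in coding exon 17, 23003 nt before it, and the other in an intron, 18684 nt before it. DDX50 and DDX27 also had no placed end near the canonical end.

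The 7 genes of export, translation and decay held 27 distinct sites over both tables together, a median of 4 per gene. DDX6, a helicase of mRNA decay and translational repression, had 4 sites in the MDA-LM2 table and 6 within the sgHNRNPC table. The 3 genomic positions of the smaller DDX6 list were all in the larger one, which added a further genomic position, 865 nt beyond the most distal of them, and the end of a retained-intron transcript 33357 nt before the canonical end. DDX3X, which aids translation initiation on structured leaders, went the other way, with 5 sites in the MDA-LM2 table and 3 within the sgHNRNPC table. DHX36, which unwinds G-quadruplexes, had the same 5 sites in both tables, and its 4 placed ends all lie in coding exons, between 5079 and 37250 nt before the canonical end. DHX34, a factor of nonsense-mediated decay, had 2 ends 425 nt apart in the same last exon.

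Among the helicases of RNA sensing, DDX58, the RIG-I receptor of viral RNA, and DHX9, which binds double-stranded RNA, had 3 sites each, and DDX60 and DDX60L had 2 each. Genes with 2 sites were 47.1% of all genes in the MDA-LM2 table and 45.0% within the sgHNRNPC table. Of the 3 genes of mitochondria and genome maintenance, DDX1 had 4 sites, none of which could be placed by GRCh38 coordinates, and DHX30, which acts in mitochondrial ribosome assembly, had 2. DDX11, a helicase of sister chromatid cohesion, had 3 ends in the MDA-LM2 table and 2 within the sgHNRNPC table.

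Most sites of the helicase genes entered both comparisons. The tables shared 97 helicase sites, which is 84.3% of those in the MDA-LM2 table and 82.9% of those within the sgHNRNPC table, and the shares over all genes were 84.5% and 78.5%. Of the 33 helicase genes in both tables, 21 (63.6%) had exactly the same sites, against 53.3% of 5838 genes. By kind, the shared genomic positions numbered 32, or 91.4% of the 35 in the MDA-LM2 table and 74.4% of the 43 within the sgHNRNPC table, near the 87.7% and 76.0% over all genes. Shared transcript ends numbered 65, or 81.2% of 80 and 87.8% of 74, against 81.9% and 81.0% over all genes. Of the helicase genes 33 of 41 were in both tables, close to the 5838 of 7504 among all genes. DDX20, DDX24 and DDX60 were listed in the MDA-LM2 table alone, and DDX19B, DDX39A, DDX39B, DHX15 and DHX37 in the other table alone. The rule by which a site entered a table is not given in the sources used here, so a difference in the cells, in depth and in filtering cannot be told apart in these lists.

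The order of the sites could be read from the pairs without a conflict in any gene. The most distal site was a transcript end in 34 of 36 helicase genes (94.4%) in the MDA-LM2 table and in 36 of 38 (94.7%) within the sgHNRNPC table, close to the 89.0% and 91.8% of all genes. The exceptions were DHX36 in both tables, DDX31 in the MDA-LM2 table and DDX3X within the sgHNRNPC table, each of which ended in a genomic position. The sgHNRNPC table listed the canonical end of DDX31 as its last site, and did not list the DDX3X end that was last in the MDA-LM2 table. The most proximal site was a genomic position in 12 genes (33.3%) and in 16 genes (42.1%), where the shares over all genes were 49.9% and 53.8%. The difference was not tested.

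The 81 placed ends were sorted by where they lie in their genes, which leaves out the genomic positions. By the canonical transcript of each gene, 30 of the ends (37.0%) lie within 24 nt of its end, 11 (13.6%) lie further upstream in its 3′ UTR, 34 (42.0%) lie in a coding exon, 5 (6.17%) in an intron and 1 after the end. Over all genes 45.5% of 11627 placed ends were canonical ends, 20.8% lay further upstream in the 3′ UTR, 26.3% in coding exons and 4.45% in introns. The ends in coding exons came from 22 of the 39 helicase genes with a placed end, and 12 of the 34 belong to transcripts that the annotation marks as incomplete at the 3′ end (35.3%, against 42.3% over all genes). By transcript type, 35 of the placed ends belong to protein-coding transcripts (43.2%, against 65.1% over all genes), 21 to transcripts with a retained intron (25.9%, against 1393 of 11627 over all genes), 15 to transcripts annotated for nonsense-mediated decay (18.5%, against 9.15%) and 10 to transcripts of coding genes with no coding sequence defined. The type is that of the transcript naming the site, not of the end itself. Canonical ends made up 21 of the 35, 6 of the 21, 2 of the 15 and 1 of the 10, in that order. For 68 of the 81 ends the listed transcript is the only one that stops at exactly that base, which was not counted over all genes. Some of these lie close to the canonical end, such as DDX18-205, 7 nt before it, and DDX6-207, 3 nt before it.

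**Figure D2:**
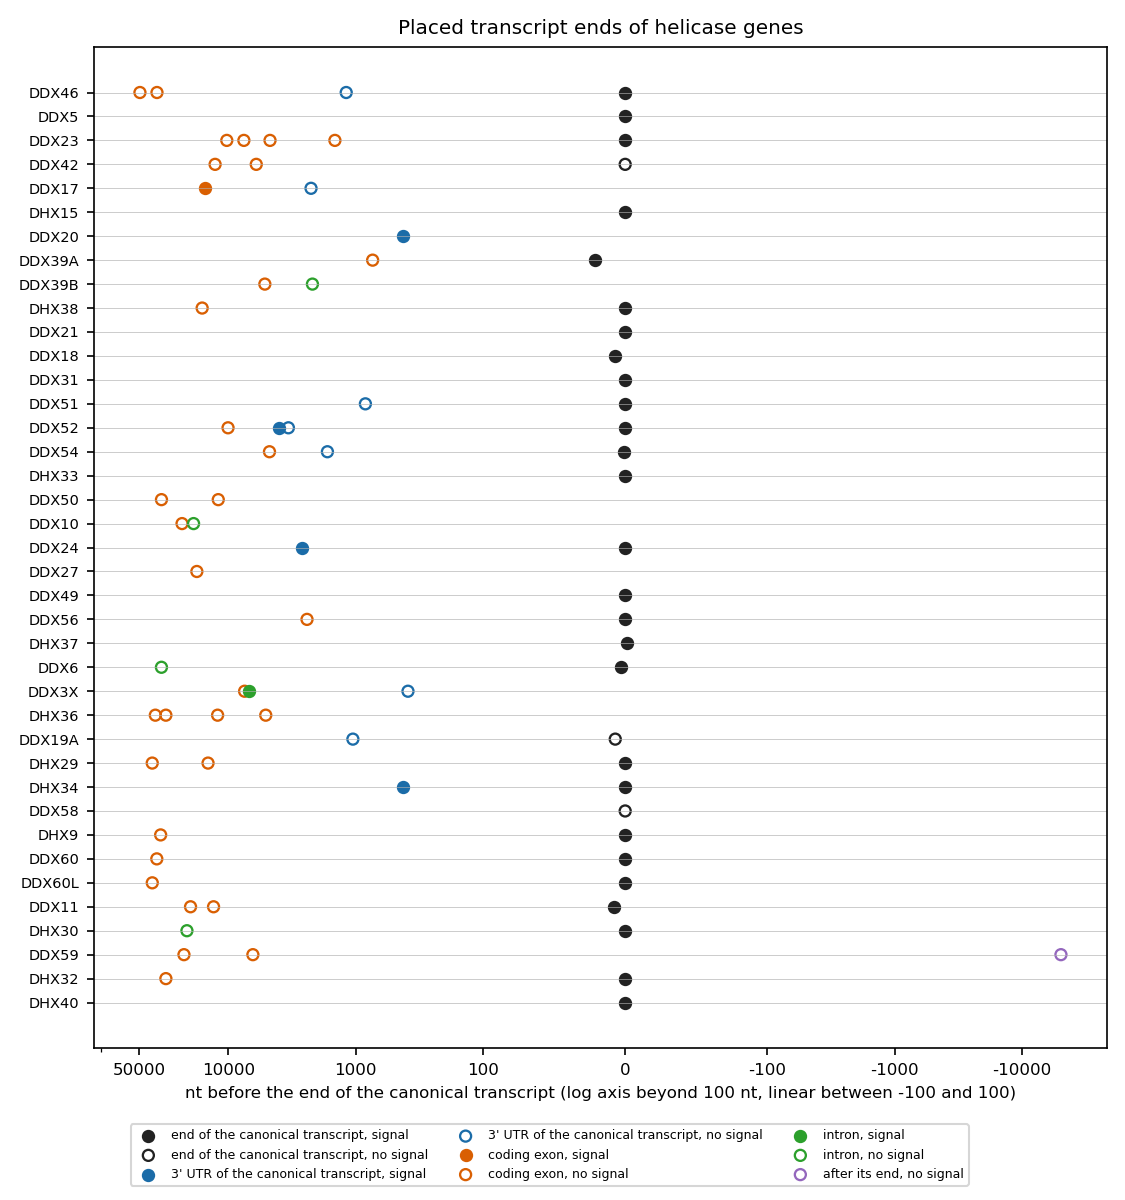
Position of each of the 81 placed transcript ends of helicase genes as nt before the end of the gene's canonical transcript (horizontal axis, log beyond 100 nt on either side and linear nearer to it), 1 row per gene in order of role; colour gives the part of the canonical transcript the end lies in, and filled circles have a poly(A) signal within 50 bases. Filled black circles line up at the canonical end, and open orange circles, ends in coding exons with no signal, spread from 738 to 49169 nt before it.

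The share of ends with a poly(A) signal differed between these classes. AATAAA or ATTAAA was looked for in the 50 bases before each end on the strand of the gene, and was present at 27 of the 30 canonical ends (90.0%, 95% Wilson interval 74.4 to 96.5), as AATAAA at 23 and as ATTAAA at 4. It was present at 4 of 11 other ends in the 3′ UTR (36.4%, 15.2 to 64.6), at 1 of 34 ends in coding exons (2.94%, 0.521 to 14.9) and at 1 of 5 ends in introns. The interval for coding exons does not overlap that for canonical ends, but this is not a test of the difference. Ends of the same gene are not independent and the intervals cover counting error only. Transcripts marked as incomplete at the 3′ end gave 12 of the 34 ends in coding exons and 0 of the 30 canonical ends. The same order held over all genes, where 84.0% of canonical ends, 34.7% of other ends in the 3′ UTR and 5.33% of ends in coding exons had a signal, and within each class the helicase interval includes the share over all genes. Over all placed ends together the helicase share was 40.7% (30.7 to 51.6), against 49.0%. The first base of the signal lay a median of 22 bases before the end, with a range of 16 to 40, and 29 of the 33 signals began 10 to 30 bases before it.

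**Figure D3:**
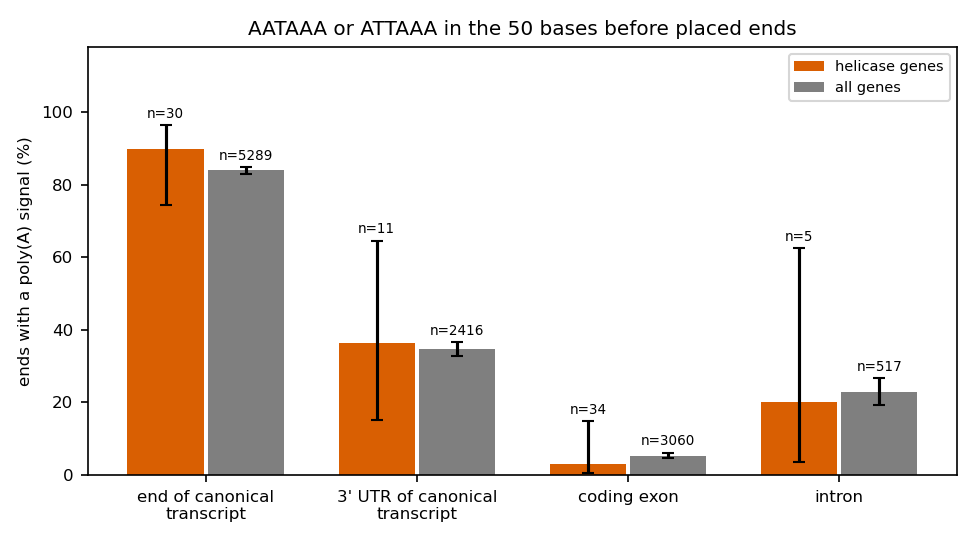
Percent of placed transcript ends with AATAAA or ATTAAA in the last 50 bases (vertical axis), by the part of the canonical transcript in which the end lies, for helicase genes (orange) and all genes (grey), with 95% Wilson intervals and the number of ends above each bar. Canonical ends of helicase genes reach 90.0% and ends in coding exons 2.94%, and both orange intervals include the grey value beside them.

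The 3 canonical ends without either hexamer were those of DDX42, DDX58 and DDX19A, genes for splicing, RNA sensing and mRNA export. The end in a coding exon with a signal was that of a DDX17 transcript without a defined coding sequence, where AATAAA begins 39 bases before the end. DDX17, a close relative of DDX5, had no listed end at its canonical end, and its distal transcript end stopped 2243 nt before it, after a run of A and then alternating A and T. In introns the signal was found at a DDX3X end, beginning 36 bases before it. Ends in the 3′ UTR with a signal came from DDX20, DDX24, DDX52 and DHX34, so that DDX24, DDX52 and DHX34 were each listed with both an upstream and a canonical end that carry a hexamer.

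The kind of proximal site could be read only for the pairs in which it was placed. In the MDA-LM2 table the proximal site could be placed in 79 of 154 helicase pairs, and it lay in a coding exon in 65 and in an intron in 4, together 87.3% (95% Wilson interval 78.2 to 93.0). In the sgHNRNPC table it could be placed in 64 of 151 pairs, with 50 in a coding exon and 6 in an intron, together 87.5% (77.2 to 93.5). The shares over all genes were 71.9% and 66.0%. Pairs of 1 gene share sites and are not independent, so the intervals are too narrow. Genes with many sites also weigh more in these shares, and DDX46 alone gave 21 of the helicase pairs in each table. A share per gene was not computed. Of the helicase pairs with both ends placed, 9 of 60 in the MDA-LM2 table and 7 of 43 within the sgHNRNPC table had both in the 3′ UTR or at or after the canonical end, against 26.2% and 31.5% over all genes. In the MDA-LM2 table they came from DDX19A, DDX24, DDX46, DDX51, DDX52, DDX54 and DHX34, and within the sgHNRNPC table from DDX46, DDX51, DDX52, DDX54 and DHX34.

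Between the most proximal and the most distal placed end, the helicase genes spanned a median of 14436 nt in both tables, over 24 and 22 genes, against 6668 and 4756 nt over all genes. The shortest span was 425 nt in DHX34 and the longest 49169 nt in DDX46, both in each table. DDX51 spanned 841 nt in both, DDX39A spanned 717 nt within the sgHNRNPC table, and DDX59, a helicase of less certain role, spanned 42363 nt from an end 22222 nt before the canonical end to one 20141 nt after it.

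For genomic positions the distance from one to the next is given, which is not the same measure as the span of the placed ends. The median distance between neighbouring genomic positions of a helicase gene was 758 nt in the MDA-LM2 table (17 distances in 11 genes) and 952.5 nt within the sgHNRNPC table (20 distances in 13 genes), and the medians over all genes were 880.5 and 791 nt. Distances of at most 500 nt numbered 6 (35.3%) and 5 (25.0%), against 1098 of 4220 and 1506 of 5234 over all genes. Distances of at most 2000 nt made up 64.7% and 60.0%, against 76.3% and 80.8% over all genes, so that the order against all genes in the MDA-LM2 table turned with the limit. The closest were 409 nt in DHX40 and 412 nt in DDX46, each in both tables, followed by DDX31 with 422 nt in the MDA-LM2 table. DHX33, which acts in nucleolar transcription and assembly, had 463 nt in both tables, DDX18 had 473 nt in both, and DHX15, the helicase that releases the spliceosome from its intron, had 476 nt within the sgHNRNPC table. DDX21 had distances of 538 and 472 nt in the MDA-LM2 table, and since the sgHNRNPC table did not hold the middle position, the distance there was 1010 nt. The widest gap, 62004 nt in DDX46, lies between its first and its second genomic position, with 2 transcript ends between them in the order of sites.

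**Figure D4:**
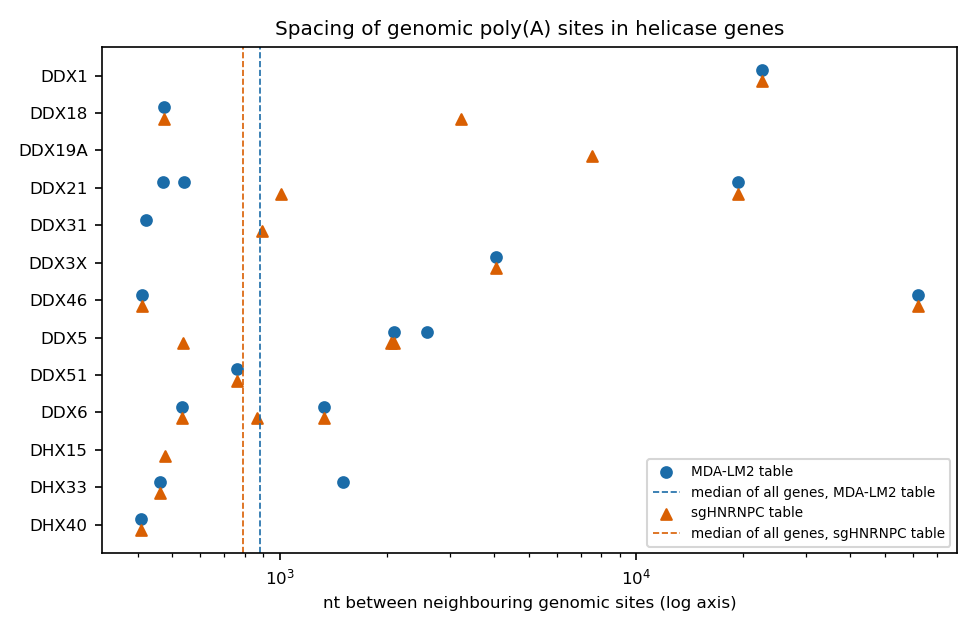
Distance in nt between neighbouring genomic poly(A) sites of the same helicase gene (horizontal log axis), 1 row per gene, for the MDA-LM2 table (blue circles) and the sgHNRNPC table (orange triangles); dashed lines are the medians over all genes, 880.5 and 791 nt. Points of DHX40, DDX46, DHX33 and DDX18 at 409 to 473 nt coincide between the tables, and DDX46 has the widest gap.

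The bases around the ends bear on the assay, which primes on poly(A), and on HNRNPC, which binds runs of U. A run of at least 6 A in the 20 bases after the end was present in the genome at 5 of the 81 placed ends (6.17%, against 4.15% over all genes), at 0 of the 30 canonical ends, at 2 ends in coding exons, at 2 in introns and at the end after the canonical one. These were ends of DDX10, DDX39B, DDX59, DDX60L and DHX36. By an alternative rule chosen after seeing the data, at least 12 A among the 20 bases, the number was again 5, but an end of DDX46 in the 3′ UTR, with 15 A, took the place of the DDX39B end, with 9. At the intronic DDX10 end all 20 bases are A, and at the distal DDX59 end 16 are. Whether reads at these ends came from priming on genomic A was not tested. Runs of 5 or more U, looked for up to 100 nt on each side of the end separately, were present at 41 of the 81 ends (50.6%), close to the 51.9% over all genes. Runs of 6 or more, a length chosen after seeing the data, were present at 17 ends (21.0%), against 25.6% over all genes. By class, runs of 5 or more were present at 14 of 30 canonical ends (46.7%, against 61.0%) and at 19 of 34 ends in coding exons (55.9%, against 39.8%).

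Some ends share sequence with other genes, so that their reads could be assigned to either. Of the 81 placed transcripts, 56 shared no 31-mer of the last 300 nt with transcripts of other genes, and 6 shared over 50% of them. Sharing was not counted over all genes, so whether helicase genes differ in it is unknown. For DDX11 the 2 ends in coding exons shared 74.1% and 86.3%, with the copies DDX12P and DDX12B, and the canonical DDX11 end shared none. The DDX19A end listed in the MDA-LM2 table alone shared 100% with DDX19B and a gene that overlaps it on the same strand, and the incomplete DDX39B transcript shared 100% with the readthrough gene ATP6V1G2-DDX39B. The intronic DDX10 end shared 73.7% with many genes, and the distal DDX58 end 92.2% with 56 other genes. The assignment of reads to these 6 ends may be uncertain for that reason, which was not tested. The 31-mers were looked for anywhere in transcripts of other genes, not only at their 3′ ends. Sequence shared with other transcripts of the same gene was not examined, so assignment at the remaining ends is not shown to be certain. Other ends shared less, with 37.4% for the DDX46 end further upstream in the 3′ UTR, 32.2% for the distal placed DDX50 end, 31.1% for the DDX3X end in the 3′ UTR, partly with DDX3Y, and 28.9% for the DHX9 end in a coding exon, and ends that could not be placed were not examined. Of the placed ends, 4 lie inside another gene on the same strand and 12 inside a gene on the opposite strand, such as BCCIP at the canonical DHX32 end. This too was not counted over all genes.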

How the data were processed

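Libraries of mRNA 3′ ends were made by the authors with a QuantSeq kit. Per the paper's methods, unique 3′ ends of Gencode release 33 transcripts were quantified with Salmon 0.14.1, normalised, and compared pair by pair with the authors' regression method. The labels also name UMI-tools and the build hg38 (GRCh38). Only 4 of the 46 genomic positions of helicase genes lie near their gene in that build, so the label does not hold for most of them. The deposited tables give, per pair, the names of the proximal and distal site, and a log ratio, p-value and adjusted p-value of the authors' own comparison, which were not used. The tables hold 0 columns of single samples.

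Sites were ordered from the pairs of each gene. Transcript ends were placed by identifier and version in GENCODE release 44 on GRCh38 and compared with the Ensembl canonical transcript, with a tolerance of 24 nt. Signals, runs of A and runs of U were read from the genome, and 31-mers from the GENCODE transcripts. Shares of ends with a signal and of pairs by proximal site carry 95% Wilson intervals, other shares carry none, and no test was run. Python 3.11.15, pandas 2.3.3, scipy 1.17.1, pysam 0.24.0 and matplotlib 3.10.9 were used. The ordering and the signal search were tested on simulated data.

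The members and role lists were chosen with earlier results of these data known. Genes named by rule are the 10 with the most distinct sites (ties taken in order of symbol), those in 1 table alone, and the genes with the most and the fewest sites of each role. Other genes, and the measures of position, A, U and shared sequence, were chosen after values were seen. The sequences of some ends are not reported here.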

Additional observations from a re-analysis of the deposited data

How the results depend on the processing

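No paired analysis was possible because neither table gives a value per sample, and for that reason leaving out each replicate and the fit with a replicate block were not run. Of 27 alternatives, 16 kept their value within the limits set (a factor of 1.5, or the 95% interval of a share) and 11 did not. Counting genomic positions alone, helicase genes with any had a mean of 1.94 sites for MDA-LM2 and 1.87 for sgHNRNPC, and counting transcript ends alone the latter was 1.95. Genomic positions alone were shared at 91.4% and 74.4% of each list. Over every pair of genomic positions the median distance was 1685.5 and 2060 nt, and with a limit of 2000 in place of 500 nt the tandem share was 64.7% and 60.0%. Between ends of protein-coding transcripts only, the median span in the MDA-LM2 table was 23396 nt, over 6 genes. The values by kind of site and for protein-coding transcripts leave out sites, the distances over every pair include positions that are not neighbours, and the wider limit admits more of the same distances. With a run of at least 6 U, chosen after seeing the data, the share of ends was 21.0%. The share of ends with a signal was 40.7%, 42.0% within 100 bases, 33.3% by AATAAA alone and 47.8% without incomplete transcripts. Depth is unknown, so a site not listed is not shown to be unused.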
